A study of Mus musculus with 6 samples.

Results

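The promoters of 45 genes that encode assembly factors of the respiratory chain were examined for CDK6 chromatin binding. The genes were listed by function, and all 45 symbols were found among the 22028 protein-coding genes of the mouse annotation GENCODE vM21 (mm10): 14 for complex I, 4 for complex II, 6 for complex III, 18 for complex IV and 3 for complex V. Promoter windows covered 2000 bp upstream and 200 bp downstream of each transcript start of the gene, and a gene was counted in a peak list when at least 1 bp of a peak lay in it. ChIP-seq against the HA tag had been performed in murine BCR::ABL1+ lymphoid cell lines that lacked endogenous CDK6 (Cdk6-/-) and overexpressed HA-tagged wildtype CDK6 (CDK6-WT, n = 2 libraries) or the HA-tagged kinase-inactive mutant (CDK6-K43M, n = 2 libraries). Both variants were therefore measured as overexpressed, tagged proteins on a knockout background, and 2 input libraries of the series were not analysed here. The comparison of the variants asks whether the kinase activity of CDK6 alters its occupancy of these promoters. The labels do not say whether replicates came from separate lines or cultures, so their spread may be technical.

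The respiratory chain is built from complexes I to IV, which pass electrons to oxygen, with proton pumping by complexes I, III and IV, and complex V, which makes ATP from the proton gradient. Assembly factors are not part of the finished complexes. They insert hemes, copper, flavin and iron-sulfur clusters, chaperone single subunits or join subassemblies, and nearly all are imported from the cytosol after transcription in the nucleus. CDK6 is a cell cycle kinase without a DNA-binding domain of its own, so its ChIP-seq peaks mark chromatin that it reaches through other proteins. NRF-1 is a transcription factor known for its binding sites in promoters of nuclear genes for mitochondrial proteins, and ETS factors, which recognise a GGAA core, are abundant in lymphoid cells.

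The motif letters of NRF-1 were found within 100 bp of the strongest promoter summit in 4 of the 45 genes. The search used GCGCN followed directly by TGCGC on both strands, where N is any base. These 4 stretches are shown because the study examined this factor together with CDK6. Each is written 5′ to 3′ on the strand of its gene, read from the genome GRCm38 (mm10), with the matched letters in capitals.
Ndufaf5, chr2:140170652-140170681, plus strand: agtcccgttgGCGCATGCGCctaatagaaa
Sdhaf4, chr1:24005613-24005642, minus strand: ccaccttggtGCGCGTGCGCagacgctgtg
Cox17, chr16:38346910-38346990, plus strand: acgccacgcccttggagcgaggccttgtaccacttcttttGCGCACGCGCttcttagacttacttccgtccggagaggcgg
Tmem70, chr1:16665121-16665206, plus strand: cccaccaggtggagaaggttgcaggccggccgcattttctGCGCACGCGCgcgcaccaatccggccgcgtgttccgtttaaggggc

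The letters of the ETS core CCGGAAG, searched on both strands, were found within 100 bp of the strongest summit in 17 of the 45 genes. Of these, 11 genes had a promoter peak in all 4 lists, and their stretches are shown because this was the motif whose share among the assembly factors stood above that of all bound genes by the most percentage points. Where the gene is read on the opposite strand to the motif, the capitals read CTTCCGG. Only 1 match per gene is in capitals, although Timmdc1 had 3 matches and Sdhaf2 had 2. At Timmdc1 another match, CCGGAAG, shares letters with the capitals and runs on in lower case.
Ndufaf1, chr2:119662831-119662867, minus strand: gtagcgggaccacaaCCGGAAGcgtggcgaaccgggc
Acad9, chr3:36065985-36066011, plus strand: tgcgagctagCTTCCGGttgcagcggt
Timmdc1, chr16:38522664-38522689, minus strand: tctcctttccgagagCTTCCGGaagt
Sdhaf2, chr19:10525183-10525208, minus strand: tacgctcggttgcgcCTTCCGGcttg
Sdhaf3, chr6:6955881-6955907, plus strand: atccgggtttCCGGAAGgacaagattc
Bcs1l, chr1:74588232-74588258, plus strand: gtgggtgtggCCGGAAGtagatgcagc
Uqcc1, chr2:155930061-155930087, minus strand: aatcgggattCCGGAAGcccacctttc
Sco1, chr11:67052610-67052646, plus strand: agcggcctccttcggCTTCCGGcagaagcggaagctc
Cox15, chr19:43752977-43753003, minus strand: gacgcctgacCCGGAAGtgcttgttct
Cox20, chr1:178318720-178318756, plus strand: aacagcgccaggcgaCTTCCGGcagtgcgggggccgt
Coa6, chr8:126422467-126422503, plus strand: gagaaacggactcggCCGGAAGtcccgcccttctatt

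The ETS letters were present in 37.8% of the assembly factor genes, in 18.7% of the 11399 protein-coding genes with a promoter peak in a list and a summit sequence, and in 20.0% of the 75 genes for structural subunits of complexes I to V. The NRF-1 letters were present in 8.89% of the assembly factor genes, 10.7% of the bound genes and 21.3% of the structural subunit genes. YY1 letters (AAGATGG) were found at 4 assembly factor genes (8.89%, against 6.18% of bound genes and 26.7% of subunit genes). A GC box (GGGCGG) was found at 23 assembly factor genes (51.1%, against 52.2%) and a CCAAT box (CCAAT) at 10 (22.2%, against 25.6%). The counts were smaller for an E-box (CACGTG) with 5 genes (11.1% against 8.37%), for a cAMP response element (TGAC followed directly by GTCA) with 3 genes (6.67% against 3.08%) and for the GFY element (ACTACAA) with 3 genes (6.67% against 4.06%). All motifs were searched on both strands, and none contains another, although ETS and YY1 matches can share letters. The NRF-1 and YY1 shares depended on the stretch searched. Between 250 bp upstream and 50 bp downstream of the gene start, NRF-1 letters were at 17.8% of the assembly factor genes, 10.5% of the bound genes and 16% of the subunit genes. YY1 letters were there at 11.1%, 7.27% and 12%. The ETS share of the assembly factor genes was above that of the bound genes in both windows (35.6% against 17.9% around the gene start). These shares are descriptions without a test, and a match is no evidence that the factor was present. The centre of the NRF-1 match lay 6 bp from the summit at Cox17 and 1 bp at Sdhaf4, where the match spanned the summit. It lay 15 bp away at Tmem70 and 70 bp at Ndufaf5. Among the 11 genes shown, the centre of the ETS match lay 1 bp from the summit at Sco1, where the match spanned the summit, and 6 bp at Sdhaf3.

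Most assembly factor promoters carried a CDK6 peak with both variants. A peak in at least 3 of the 4 lists, the definition by which the study called a site bound by both variants, was found at 37 of 45 genes (82.2%), beside 41.3% of all protein-coding genes. A peak in all 4 lists was found at 29 genes (64.4%), beside 33.2% of all genes. No assembly factor gene was without a peak in every list, whereas 48.2% of all genes were. No gene had peaks with both CDK6-WT libraries and neither CDK6-K43M library (0.0817% of all genes), and none had the opposite pattern (0.241%).

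By list, promoter peaks were present at 43 genes with CDK6-WT replicate 1, 35 with CDK6-WT replicate 2, 45 with CDK6-K43M replicate 1 and 32 with CDK6-K43M replicate 2. The same shares over all protein-coding genes were 47%, 40.1%, 48.5% and 39.4%. The lists of replicate number 1 therefore covered all or nearly all of the assembly factors with both variants, and those of replicate number 2 fewer. The number of genes was 39.0 ± 5.66 for CDK6-WT and 38.5 ± 9.19 for CDK6-K43M (SD, n = 2). The difference of -0.5 genes (exact two-sided permutation test, p of 1) was smaller than the spread between replicates. Within replicate number 1 CDK6-K43M had 2 genes more than CDK6-WT, and within replicate number 2 it had 3 fewer. Replicate number 1 exceeded number 2 by 10.5 genes (44.0 ± 1.41 against 33.5 ± 2.12, SD, n = 2), with an exact permutation p of 0.33, the smallest that 4 libraries allow.

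**Figure D1:**
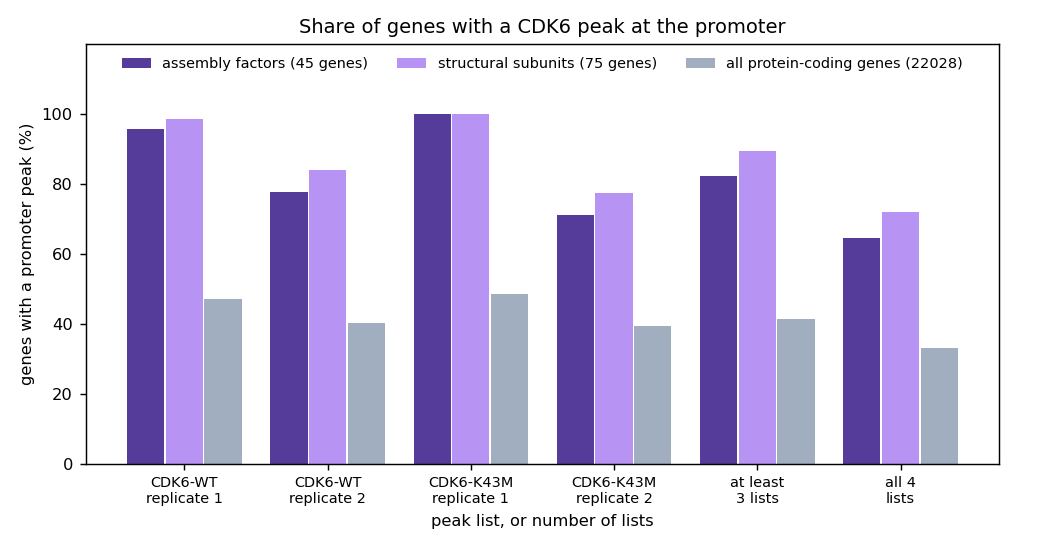
The bars give the share of genes (%) with a CDK6 peak at the promoter in each of the 4 peak lists, in 3 or more of them and in every list, for the 45 assembly factors, the 75 structural subunits and all 22028 protein-coding genes. Both gene lists stand above all protein-coding genes in every column, and both replicate 2 columns are lower than the replicate 1 columns.

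The lists differed in the strength of their peaks. They held 35189 (replicate 1) and 34729 (replicate 2) peaks with CDK6-WT, against 39797 and 37304 with CDK6-K43M. Depth was recovered as whole reads at the summits, and the treatment libraries had 1.03, 1.09 and 1.23 times the reads of their control in the first 3 lists, and no more than the control in CDK6-K43M replicate 2. The lowest summit in a list held 8, 8, 9 and 7 reads, so that a promoter with fewer reads was not detectable at this depth. At the assembly factors the median fold enrichment was 10.9 and 10.6 in the replicate 1 lists of CDK6-WT and CDK6-K43M, and 5.71 and 5.84 in the replicate 2 lists. The replicate number may stand for a batch, but the labels name none, and its part in any result was not tested.

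The strength of a peak is given below as its percentile, the share of peaks in the same list with a lower −log10 q. Peaks with equal values were placed at the middle of their shared ranks. Where a promoter held several peaks, the strongest was used. The median percentile over assembly factor genes with a peak was 84.3 for CDK6-WT replicate 1, 51.4 for CDK6-WT replicate 2, 84.3 for CDK6-K43M replicate 1 and 57.4 for CDK6-K43M replicate 2. Over all protein-coding genes with a promoter peak, the medians were 78.9, 59.6, 80.4 and 58.4 in the same order, and over the structural subunits 88.4, 58.7, 88.6 and 57.7. The share of assembly factors with a peak was thus above the background in every list, while the median strength of their peaks lay near that of all bound promoters, above it in both replicate 1 lists and below it in both replicate 2 lists. A percentile of at least 90 was reached by 14, 1, 12 and 1 assembly factor genes in the 4 lists (32.6%, 2.86%, 26.7% and 3.13% of those with a peak), beside 27.1%, 8.48%, 29.5% and 9.03% of all genes with a peak.

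The variants did not separate in this measure. The median percentile was 67.8 ± 23.3 for CDK6-WT and 70.8 ± 19.0 for CDK6-K43M (SD, n = 2), a difference of 3.0 with an exact two-sided permutation p of 1. Within replicate number 1 the difference was -0.019 and within replicate number 2 it was 6.02. Over the 29 genes with a peak in all 4 lists, so that the same genes enter each median, the difference was -0.028 (exact permutation p of 1). Replicate number 1 exceeded replicate number 2 by 29.9 (84.3 ± 0.013 against 54.4 ± 4.26, SD, n = 2, exact permutation p of 0.33).

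**Figure D2:**
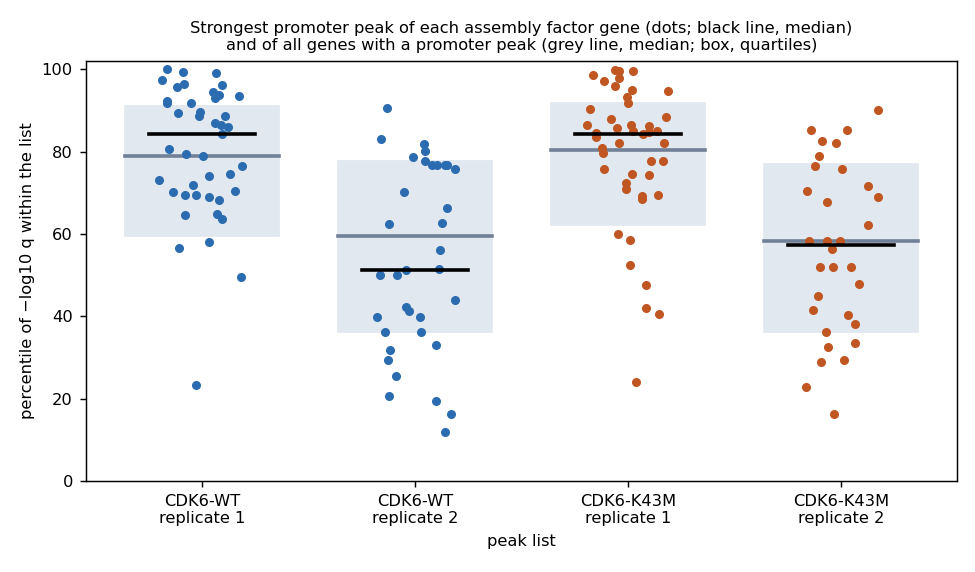
Each dot is the strongest promoter peak of 1 assembly factor gene, by its percentile of −log10 q (vertical axis, 0 to 100) in each of the 4 lists. The black line is their median, and the grey line and box give the median and quartiles of all genes with a promoter peak. The dots of the replicate 1 lists sit mostly in the upper part of the scale, and those of the replicate 2 lists spread from 11.98 to 90.66.

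Complex I takes electrons from NADH, and 11 of its 14 assembly factors had a peak in at least 3 lists, 9 of them in all 4. Acad9, a component of the complex that builds the membrane arm, had the highest mean percentile of the 14. Its percentiles were 96.3 and 78.6 with CDK6-WT and 94.8 and 85.3 with CDK6-K43M, for replicates 1 and 2 of each. Ndufaf1, its partner in that complex, had 92.3 and 62.6 with CDK6-WT and 97.1 and 71.7 with CDK6-K43M. Timmdc1 and Tmem126b act in the same step, and both had peaks in all 4 lists, with percentiles from 36.2 to 90.3 at Timmdc1 and from 50.1 to 84.3 at Tmem126b. The 50.1 of Tmem126b, in CDK6-WT replicate 2, came from a separate peak with its summit at -936 bp from the start. Ecsit, another partner, had peaks in 2 lists, CDK6-WT replicate 2 (36.3) and CDK6-K43M replicate 1 (47.7). Their summits held 14 and 22 reads, beside medians of 17 and 40 over the assembly factors and 18 and 23 over all peaks of these lists. Among the partners that join the membrane arm, Ecsit was thus the exception.

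Ndufaf3 and Ndufaf4, which bind the early quinone module together, had peaks in all 4 lists, with percentiles of 85.9, 76.7, 84.5 and 62.3 for Ndufaf3 and 69.0, 76.7, 87.9 and 52.0 for Ndufaf4, in the order CDK6-WT replicates 1 and 2 and CDK6-K43M replicates 1 and 2. At Ndufaf4 the replicate 2 value was the higher one with CDK6-WT and the lower one with CDK6-K43M. Ndufaf5, which hydroxylates an arginine of the subunit Ndufs7, had percentiles of 91.7, 83.0, 93.3 and 58.4. Ndufaf8, its partner protein, was the gene with the fewest peaks: 1 peak, in CDK6-K43M replicate 1, at a percentile of 42.0 and with 24 reads at the summit (exact 95% Poisson interval 15.4 to 35.7, for counting error only). That peak lay at chr11:120098556-120099286. Ndufaf7, a methyltransferase, had 89.6, 51.4, 94.6 and 29.0, so the replicate 1 values were high and the replicate 2 values low with both variants. Ndufaf6, an early factor, had the lowest mean percentile of the genes bound in all 4 lists (45.8), with 69.6, 11.98, 69.4 and 32.5. Its strongest peak lay at -55 bp from the nearest start in CDK6-K43M replicate 1, but at -964, -878 and -935 bp in the other lists.

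Nubpl, which supplies iron-sulfur clusters to complex I, had peaks in the replicate 1 lists alone, at percentiles of 70.2 with CDK6-WT and 75.9 with CDK6-K43M. Ndufaf2, which stays on the nearly complete complex, had 56.6 and 41.3 with CDK6-WT, 40.7 with CDK6-K43M replicate 1 and no peak with CDK6-K43M replicate 2. Foxred1 lacked the same list and had 78.9, 66.4 and 85.7 in the others.

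Complex II oxidises succinate. Of its 4 assembly factors, 2 had a peak in all 4 lists and 2 in the replicate 1 lists alone. The share was 50% both for at least 3 lists and for all 4, beside 41.3% and 33.2% of all protein-coding genes. This was the lowest coverage of any complex, but it rests on 4 genes. Sdhaf2, needed to attach the flavin to Sdha, had percentiles of 58.1 and 25.5 with CDK6-WT and 69.3 and 40.3 with CDK6-K43M. Sdhaf4, which acts on Sdha after the flavin, had 49.7 with CDK6-WT replicate 1 and 52.4 with CDK6-K43M replicate 1. The other 2 genes act in the maturation of the iron-sulfur subunit Sdhb. Sdhaf3 had 63.7 and 39.8 with CDK6-WT and 68.5 and 70.5 with CDK6-K43M. Sdhaf1 had 23.3 and 24.0 in the replicate 1 lists, the lowest percentile among the assembly factors in each, and its peak lay 1774 and 1674 bp upstream of the start, further than at any other assembly factor gene (chr7:30325466-30325663 in CDK6-K43M replicate 1). The highest percentile in this group was the 70.5 of Sdhaf3, as the map of percentiles shows.

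Complex III passes electrons from ubiquinol to cytochrome c, and all 6 assembly factors had a peak in at least 3 lists, 4 of them in all 4. Bcs1l, the ATPase that moves the Rieske iron-sulfur protein across the inner membrane, reached percentiles of 99.3 with CDK6-WT replicate 1 and 99.5 with CDK6-K43M replicate 1. In the replicate 2 lists it had 42.4 with CDK6-WT and 82.0 with CDK6-K43M, although the summits held 22 and 23 reads. The recovered background differed there, with 4.35 reads for CDK6-WT and 1.98 for CDK6-K43M. Lyrm7, the chaperone of the Rieske protein, had 76.5 and 33.1 with CDK6-WT, 86.5 with CDK6-K43M replicate 1 and no peak with CDK6-K43M replicate 2. Ttc19, which helps clear Rieske fragments from the finished complex, had 73.2, 19.5, 72.4 and 22.9. Low replicate 2 values with both variants placed Ttc19 among the 5 lowest genes by mean percentile.

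Uqcc1, Uqcc2 and Uqcc3 act on cytochrome b, the mitochondrially encoded subunit of complex III. Uqcc1 had percentiles of 92.9 and 77.8 with CDK6-WT and 80.8 and 56.4 with CDK6-K43M. Uqcc2 had 93.8 and 62.5 with CDK6-WT and 91.7 and 47.8 with CDK6-K43M. In both genes the CDK6-WT value was the higher one within each replicate number, while the values of the variants overlapped. Uqcc3 had 96.4, 29.5 and 83.6 and lacked a peak with CDK6-K43M replicate 2.

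Complex IV, cytochrome c oxidase, carries hemes and copper, and 15 of its 18 assembly factors had a peak in at least 3 lists, 12 of them in all 4. Cox15, which makes heme a, had the highest mean percentile of all assembly factors (94.0 ± 4.21, SD over 4 libraries). Its percentiles were 97.3 and 90.7 with CDK6-WT and 97.9 and 90.02 with CDK6-K43M, and it was the gene that passed 90 in the replicate 2 lists. Its strongest peak, in CDK6-K43M replicate 1, spanned chr19:43752624-43753614 (mm10). Cox10, the enzyme of the preceding step to heme o, had 74.1 with CDK6-WT replicate 1, 58.7 and 33.6 with CDK6-K43M and no peak with CDK6-WT replicate 2. Surf1, linked to the insertion of heme a, lacked the same list and had 69.6, 77.7 and 41.5 in the others. The 3 heme-related genes thus ranged from the top of the group to 3 lists.

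Genes for copper delivery were bound at varied strength. Cox19, one of the small copper-related proteins of the intermembrane space, had percentiles of 99.1 and 81.7 with CDK6-WT and 99.8 and 85.3 with CDK6-K43M, the second highest mean (91.5). The strongest peak was not the same one in these lists: its summit lay at position 139345180 and 139345200 of chromosome 5 in the replicate 1 lists and at 139351478 and 139351746 in the replicate 2 lists, at other transcript starts of the gene. Cox17, the copper chaperone that feeds Sco1 and Cox11, had 91.9, 43.9 and 77.7 and no peak with CDK6-K43M replicate 2. Cox11, which delivers copper to the subunit Cox1, had 88.7, 32.0, 79.7 and 58.4. Sco1 and Sco2, which deliver copper to the subunit Cox2, were bound in all 4 lists. Sco1 had 79.4 and 36.3 with CDK6-WT and 82.0 and 75.9 with CDK6-K43M. Sco2 had 70.4 and 16.4 with CDK6-WT and 86.4 and 52.0 with CDK6-K43M. For both, CDK6-WT replicate 2 was the lowest of the 4 libraries. Coa6, a further copper-related factor, had 64.5, 56.1, 74.6 and 44.9.

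Among the factors that handle single subunits of complex IV, Cox18 and Cox20, which insert and hold Cox2, had the third and the fifth highest mean percentile (89.6 and 86.98). Cox18 had percentiles of 99.9 and 80.1 with CDK6-WT and 99.6 and 78.9 with CDK6-K43M, and its replicate 1 summits held 81 and 82 reads. The CDK6-WT replicate 1 peak at chr5:90223559-90224410 had the highest percentile of any assembly factor. Cox20 had 93.6 and 75.8 with CDK6-WT and 95.9 and 82.6 with CDK6-K43M. Cox16, which also acts on Cox2, had peaks in the replicate 1 lists alone (68.2 and 59.9). Cox14 and Coa3 regulate synthesis of Cox1 together, and they differed: Cox14 had 88.7, 76.7, 84.7 and 76.5, whereas Coa3 had peaks in the replicate 1 lists alone, at 95.7 with CDK6-WT and 70.9 with CDK6-K43M. Pet100 also had replicate 1 peaks alone, at 86.5 and 85.0. Coa5 had 94.5, 51.5, 98.5 and 67.7, and Coa7 had 84.3, 39.8, 82.0 and 29.4. Lrpprc, which stabilises mitochondrial messenger RNAs, had 89.3, 70.2, 86.2 and 68.9, nearly the same with both variants.

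Complex V makes ATP, and its 3 assembly factors were bound in 3 or more lists. Atpaf1, the chaperone of the beta subunit, had percentiles of 74.4 and 50.1 with CDK6-WT and 88.3 and 58.4 with CDK6-K43M. Atpaf2, the chaperone of the alpha subunit, had 86.9 and 20.8 with CDK6-WT and 84.9 and 16.2 with CDK6-K43M, the lowest CDK6-K43M replicate 2 value of all assembly factors. Its strongest peak was not the same one in these lists. The summits lay at -39 and -45 bp from the nearest start in the replicate 1 lists and at -540 and -589 bp in the replicate 2 lists. Tmem70, needed for the ring of c subunits, had 64.9 with CDK6-WT replicate 1, 74.4 and 38.3 with CDK6-K43M and no peak with CDK6-WT replicate 2.

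**Figure D3:**
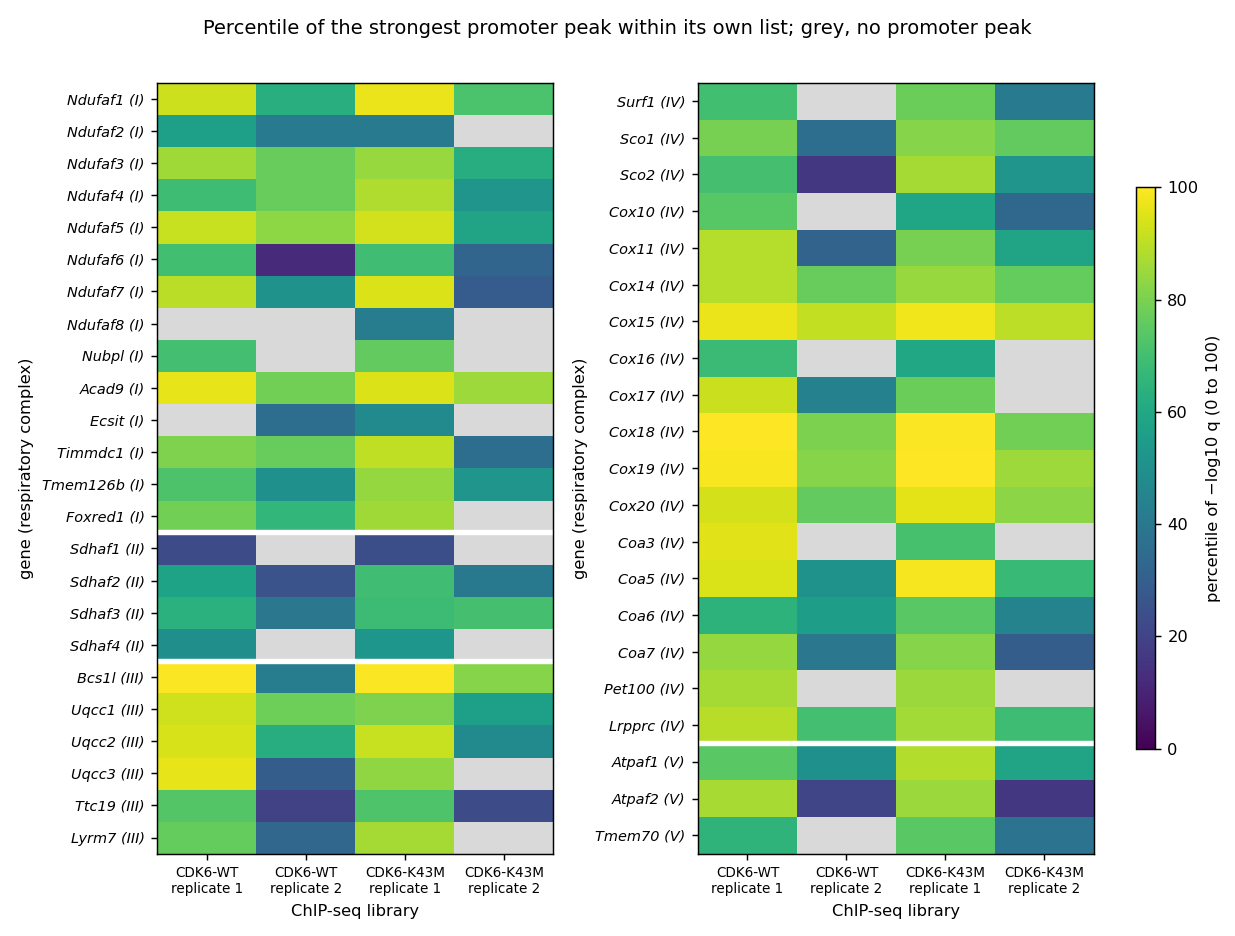
Each row is 1 assembly factor gene with its complex in brackets, each column 1 library, and the colour gives the percentile of the strongest promoter peak within its own list (0 to 100, grey for no promoter peak). Grey fields are confined to the replicate 2 columns, apart from Ndufaf8 and Ecsit in CDK6-WT replicate 1.

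A peak in exactly 2 lists was found at 7 genes (7.44% of all genes) and in exactly 1 list at 1 gene (3.01%). Of these 8 genes, 6 (Coa3, Cox16, Nubpl, Pet100, Sdhaf1 and Sdhaf4) had peaks in both replicate 1 lists and neither replicate 2 list. This pattern was found in 5.67% of all protein-coding genes, and the opposite pattern in 1.28% of all genes and in none of the assembly factors. The other 2 were Ecsit and Ndufaf8. The shares of all genes given here include the 48.2% without a peak in any list, whereas every assembly factor gene had a peak. They are therefore lower than the shares among bound genes would be. Another 8 genes had a peak in exactly 3 lists (8.13% of all genes), namely Cox10, Cox17, Foxred1, Lyrm7, Ndufaf2, Surf1, Tmem70 and Uqcc3. Each lacked 1 of the replicate 2 lists, CDK6-WT at Cox10, Surf1 and Tmem70 and CDK6-K43M at the remainder. All of these genes were bound in CDK6-K43M replicate 1, so none was without a peak with the kinase-inactive protein. That rests on 1 list, the longest (39797 peaks), whereas CDK6-K43M replicate 2 covered the fewest assembly factors (32).

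The direction of the difference between variants varied from gene to gene. Among the 29 genes with a peak in all 4 lists, the percentile was higher with CDK6-K43M in both replicate numbers at 11 genes, higher with CDK6-WT in both at 8, and opposite in the 2 replicate numbers at 10. All genes bound in all 4 lists gave 2126, 1591 and 3595 of 7312. The variants did not overlap at 1 gene, Sdhaf3, where both CDK6-K43M values exceeded both CDK6-WT values, beside 10.4% of the 7312 genes. The summits of Sdhaf3 held 21 and 16 reads with CDK6-WT and 27 and 19 with CDK6-K43M, and their exact 95% Poisson intervals overlapped, from 9.15 to 32.1 reads for CDK6-WT and from 11.4 to 39.3 for CDK6-K43M. The replicate numbers did not overlap at 27 of the 29 genes, with replicate 1 higher, beside 69.4% of the 7312 genes, and the exceptions were Ndufaf4 and Sdhaf3.

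The genes with the largest differences of 1 sign in both replicate numbers were selected by that difference, so no test was made. With CDK6-K43M higher these were Sco2 (by 16.1 and 35.6 in replicates 1 and 2), Sco1 (2.59 and 39.6) and Bcs1l (0.20 and 39.6). With CDK6-WT higher they were Uqcc1 (-12.1 and -21.4 for CDK6-K43M minus CDK6-WT), Uqcc2 (-2.09 and -14.7) and Ndufaf3 (-1.38 and -14.4). At all 6 genes the larger difference was between the replicate 2 lists. In these lists the summit of Sco2 held 16 reads over a background of 3.26 with CDK6-WT and 14 reads over 1.57 with CDK6-K43M, so the reads ran opposite to the percentile, and the summits lay at -271 and 179 bp from the start. Sco2 had 43.4 ± 38.2 with CDK6-WT and 69.2 ± 24.3 with CDK6-K43M (SD, n = 2), so its difference was smaller than the spread between CDK6-WT replicates. Over the 29 genes the median absolute difference between variants was 3.04 between the replicate 1 lists and 14.4 between the replicate 2 lists.

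**Figure D4:**
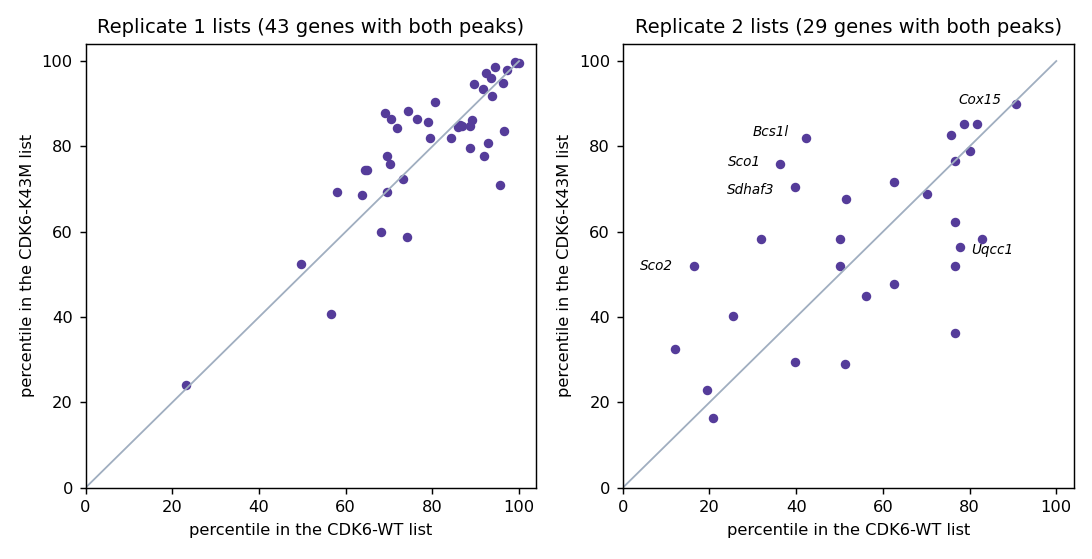
Each dot is 1 assembly factor gene with a peak in both lists, by its percentile with CDK6-WT (horizontal axis) and CDK6-K43M (vertical axis), for the 43 genes of the replicate 1 lists (left) and the 29 genes of the replicate 2 lists (right). The line marks equal percentiles, dots lie on both sides of it, and the 6 genes named on the right include Sdhaf3, the gene at which the variants did not overlap.

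CDK6 peaks sat near the transcript start. The strongest summit lay at a median distance of 48, 90, 48 and 83 bp from the nearest start of its gene in CDK6-WT replicates 1 and 2 and CDK6-K43M replicates 1 and 2, beside 64, 86, 65 and 89 bp over all genes with a promoter peak. It lay within 200 bp of a start at 38 of 43, 26 of 35, 41 of 45 and 24 of 32 genes (88.4%, 74.3%, 91.1% and 75%), beside 78.3%, 71.2%, 77.6% and 69.4% of all genes with a promoter peak. Taking for each gene the summit of its strongest list, 30 lay upstream of the gene, 11 in an untranslated or non-coding exon, 2 in an intron (Sdhaf2 and Atpaf2) and 2 in a coding exon (Surf1 and Atpaf1). At the 37 genes with at least 3 lists, peaks of at least 3 lists fell into 1 merged region, and the 29 genes with 4 lists had all 4 in 1 region. The strongest summits of these 29 genes spread over a median of 118 bp between lists, but at 11 genes they lay over 300 bp apart, by up to 6566 bp at Cox19, so the strongest peak was not the same site in every list.

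**Figure D5:**
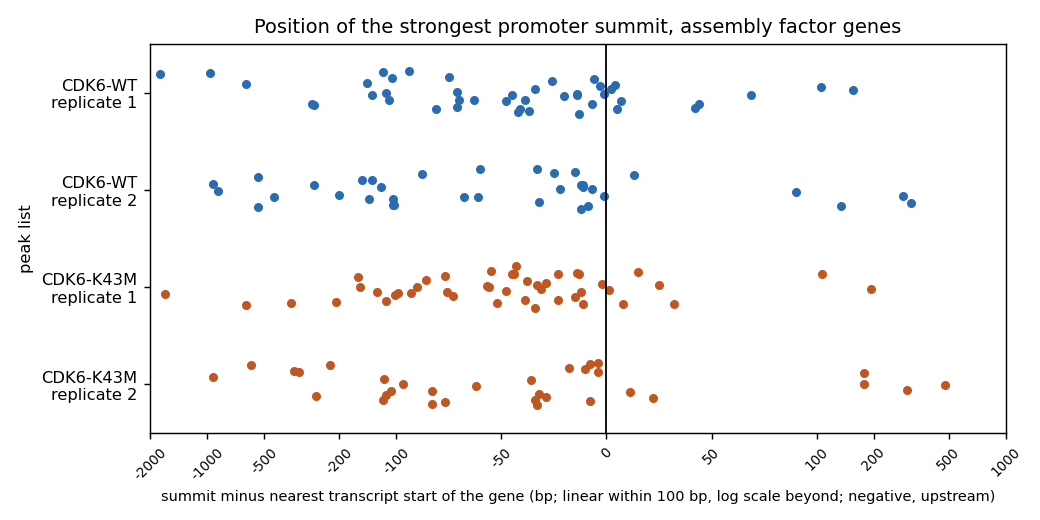
Each dot is the strongest promoter summit of 1 assembly factor gene in 1 of the 4 lists (rows), by its distance from the nearest transcript start of that gene (horizontal axis, bp, linear within 100 bp and on a log scale beyond, negative for upstream). Most dots lie within 200 bp of the start, and the 2 furthest upstream, at -1774 and -1674 bp, belong to Sdhaf1.

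Many of these promoters were shared with a second gene. At 16 of the 45 genes (35.6%) a protein-coding gene on the opposite strand started within 1000 bp in a head-to-head arrangement, beside 10.3% of all protein-coding genes and 20.3% of those with a peak in at least 3 lists. The starts were closest at Cox15 and Cutc (4 bp), Coa3 and Cntd1 (18 bp), Surf1 and Surf2 (22 bp) and Coa5 and Unc50 (36 bp). Of the 16 genes, 13 had a peak in at least 3 lists, as did 24 of the other 29. A peak in such a promoter cannot be assigned to either gene, and at 38 of the 45 genes the start nearest the summit was that of the assembly factor itself. At Ndufaf5, Ndufaf7, Foxred1, Bcs1l, Ttc19, Cox11 and Coa5 the nearest start was that of the partner (Esf1, Cebpz, Srpr, Zfp142, Zswim7, Stxbp4 and Unc50).

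The promoters were mostly CpG-rich. The observed to expected CpG ratio was at least 0.6 at 38 of the 45 genes (84.4%, median 0.72), beside 41.8% of all protein-coding genes with a value and 69.2% of those with a peak in at least 3 lists. CpG content moved with binding over all genes: 3 or more lists held a peak for 68.7% of genes with a ratio of at least 0.6 and for 22.0% of the others. The part of CpG content in the number of bound assembly factors was not tested.

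The other genes of the pathway were bound to a similar extent. Of the 75 structural subunits, 67 were bound in 3 or more lists and 54 in every list, with 74, 63, 75 and 58 genes in the 4 lists. Of 18 further assembly factors that were not among the 45, 17 were bound in 3 or more lists and 11 in every list. No gene of either list had peaks with both libraries of 1 variant and neither of the other. Between variants, the percentile of structural subunits was higher with CDK6-K43M in both replicate numbers at 10 of 54 genes and higher with CDK6-WT at 17, and the variants did not overlap at 2.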

How the data were processed

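ChIP-seq peaks against the HA tag were analysed from 1 list per library. Per the study's methods, the authors used Trimmomatic 0.36 for trimming and BWA 0.7.15 for alignment to mm10. Peaks were called with MACS2 2.1.0 after removal of multimappers, poor reads and blacklisted regions. The deposited lists give each peak's position, a fold enrichment (ratio of summit to background), −log10 p-values and q-values, a score (10 times the −log10 q as an integer), and other information, the summit offset. They begin just past a q-value of 0.05 and hold no read totals.

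Whole reads at summits were solved from fold enrichment and −log10 p, and 100% of peaks matched within 0.001 of the −log10 p. Intervals of reads cover counting error. Overlap, percentiles and read recovery were tested on simulated data. Promoters used GENCODE vM21, whereas the authors used M13. The CpG ratio was taken over 1000 bp around protein-coding starts. The authors' "bound by both" was applied per gene in place of per region. Differences between libraries had exact two-sided permutation tests over 6 assignments. For members with a peak in all 4 lists, the replicate 1 deviations from the variant mean correlated between CDK6-WT and CDK6-K43M (r = 0.33). The correlation runs across 29 genes, which are not independent, and no label states a pairing. Genes given in detail were those with under 3 lists, the 5 highest and 5 lowest mean percentiles, the 3 largest differences of 1 sign each way and NRF-1 matches. Members, lists and tests were chosen with earlier results of these data known. All 41 RefSeq promoter sequences for 39 members matched the genome used. Software was Python 3.11.15 (scipy 1.17.1, pysam 0.24.0, pandas 2.3.3).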

Additional observations from a re-analysis of the deposited data

How the results depend on the processing

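With −log10 q of at least 10, 16 genes were bound in 3 or more lists and 6 in every list, beside 17.4% and 8.41% of all protein-coding genes. With the top 10000 peaks of each list the counts were 12 and 6, beside 13.1% and 5.98%. At −log10 q of at least 5 they were 32 and 21, beside 33.9% and 23.5%. The other planned settings (lists of equal length, a window of 500 bp on each side, starts of protein-coding transcripts, summits inside the window) gave 36 to 37 and 27 to 29. Leaving out 1 library in turn gave 32 to 44 genes bound by both variants (at least 2 of the 3 remaining lists) and 29 to 34 in every remaining list. The shares over all protein-coding genes were not determined for these settings or for the libraries left out, so their counts describe the assembly factors alone.

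The difference between variants had no stable sign over the settings that kept all 4 libraries. Leaving out 1 library leaves 1 variant with a single replicate number. Those differences therefore also carry the gap between replicate numbers, and they cannot decide the sign. In genes per list (CDK6-K43M minus CDK6-WT) it was 0.5 with −log10 q of at least 5, 0 with summits inside the window, and from -7 to 6 when 1 library was left out: 3.5 without CDK6-WT replicate 1, -4.5 without CDK6-WT replicate 2, -7 without CDK6-K43M replicate 1 and 6 without CDK6-K43M replicate 2. In the median percentile it was -2.93 with −log10 q of at least 5, -2.95 with the top 10000 peaks, -0.028 over genes with a peak in all 4 lists (chosen after seeing the data), and from -13.5 to 19.5 when 1 library was left out: 19.5 without CDK6-WT replicate 1, -13.5 without CDK6-WT replicate 2, -10.5 without CDK6-K43M replicate 1 and 16.5 without CDK6-K43M replicate 2. With the replicate block the differences were -0.5 genes and 3.0 percentile points (exact sign-flip permutation p of 1 for both). A sign flip over 2 pairs cannot give a small p whatever the data, so it cannot decide whether a pairing matters. No setting of the unpaired permutation test gave a p below 0.33, the smallest that this test allows. Replicate number 1 exceeded number 2 under all settings, by 9 to 29.5 genes and by 18.2 to 39.5 percentile points, and leaving out 1 library gave 9 to 12 genes and 26.9 to 33.0 percentile points.

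The ETS letters were found at 12, 19 and 16 genes within 50 bp, within 200 bp and in the window of 250 bp before to 50 bp after the gene start (12.2%, 23.5% and 17.9% of bound genes). The NRF-1 letters were found at 3, 8 and 8 genes (6.45%, 12.7% and 10.5% of bound genes) and the YY1 letters at 2, 8 and 5 genes (2.59%, 10.6% and 7.27%). The GC box was found at 12, 34 and 29 genes in the same windows (34.2%, 66% and 59.8% of bound genes). The CCAAT box was found at 6, 19 and 21 genes (14.9%, 39.5% and 38.8%). Both counts thus moved with the window, and so did the shares of bound genes.

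With 2 libraries per variant, a difference between the variant means would have to exceed the gap between replicates to be seen. Differences within a replicate number do not include that gap, but each rests on a single library per variant. Peak lists cannot show weak binding below the threshold of the caller. The cause of the difference between replicate numbers was not tested.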

Other observations

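Some assembly factor genes carried CDK6 peaks within the gene body, outside promoter windows. Such peaks were present in at least 1 list at 15 of the 45 genes (33.3%, beside 35.8% of all protein-coding genes) and in all 4 lists at 4 of them (8.89%, beside 13.7%). These were Ndufaf2, Sdhaf2, Uqcc1 and Cox10, which were named after their values were seen. Ndufaf2 held 2 and 3 of them with CDK6-WT and 3 and 4 with CDK6-K43M, in replicates 1 and 2. Uqcc1 held 1 and 1 with CDK6-WT and 3 and 1 with CDK6-K43M.

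More than 1 peak in the promoter window of a single list was found at 19 genes, with at most 3 peaks. The share over all bound genes was not determined, so this is no trait of the assembly factors. Peak widths at assembly factor promoters ranged from 164 to 1323 bp. None of the 8 motifs searched was found within 100 bp of the strongest summit at 11 genes, and the share over all bound genes was not determined here either.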
